A study of Mus musculus with 4 samples.

Results

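Collagens VI, XII, XIV and XVI lie around and between the thick collagen fibrils of connective tissue, while collagen VIII forms networks. Followed here were 8 genes of these collagens: Col6a1, Col6a2, Col6a3, Col8a1, Col8a2, Col12a1, Col14a1 and Col16a1. They were taken by gene name, and all 8 were found among the 47643 genes of the authors' table. RNA came from cells of the femoral periosteum, the outer membrane of bone, of mice heterozygous for both a tamoxifen-inducible Cre driver in the Sox9 locus (Sox9CreErt2) and a Td-Tomato reporter. Tamoxifen was injected 3 times (100 µL at 20 mg/mL, every 48 h), and femora were collected 2 weeks later. Digested diaphyses were sorted into TdTomato-positive cells, which had Cre activity under Sox9 control during tamoxifen exposure or descend from such cells, and TdTomato-negative cells. Each sort was sequenced as 2 libraries, from 2 collections of pooled animals (9 mice, 18 femora in all). Positive and negative cells thus shared both alleles, the drug and the animals, with the negative cells as the control, and no group without Cre or tamoxifen was compared. Age is not stated in the labels used here. Since mice were pooled, no p-value reflects spread among animals. The authors' p-values come from a model with shrinkage and need not follow a gene's own spread between libraries.

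Collagen VI is assembled from 3 different chains, encoded by Col6a1, Col6a2 and Col6a3, into beaded microfilaments that surround cells. Collagen VIII is a short-chain collagen whose chains, encoded by Col8a1 and Col8a2, form open networks and are known from blood vessel walls and the cornea. Collagens XII, XIV and XVI are FACITs, fibril-associated collagens with interrupted triple helices. Collagens XII and XIV attach to the surface of fibrils in tendon, ligament and periosteum, and collagen XVI is found beside fibrils and fibrillin microfibrils.

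Upstream sequences are shown for both collagen VIII chains and for Col16a1, the member whose groups did not overlap. RefSeq starts on GRCm38.p6 were matched for 6 of the 8 genes, with 7 starts in all. Col12a1 and Col14a1 had no entry. Each line gives the 250 bases before the start, 5′ to 3′ on the gene's strand. Capitals mark the GC box GGGCGG and the CCAAT box CCAAT, each searched on both strands.
Col8a1, chr16:57754738-57754987, minus strand: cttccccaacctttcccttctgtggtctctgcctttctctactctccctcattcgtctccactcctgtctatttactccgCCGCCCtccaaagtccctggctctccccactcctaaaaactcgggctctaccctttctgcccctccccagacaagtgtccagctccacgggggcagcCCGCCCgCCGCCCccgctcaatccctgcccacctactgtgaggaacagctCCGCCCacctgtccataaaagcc
Col8a2, chr4:126286544-126286793, plus strand: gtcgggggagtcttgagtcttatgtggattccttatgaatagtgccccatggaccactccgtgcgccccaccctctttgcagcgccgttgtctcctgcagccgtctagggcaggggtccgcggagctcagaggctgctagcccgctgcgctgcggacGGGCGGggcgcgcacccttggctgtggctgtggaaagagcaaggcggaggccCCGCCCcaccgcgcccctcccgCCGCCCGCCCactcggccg
Col16a1, chr4:130047590-130047839, plus strand: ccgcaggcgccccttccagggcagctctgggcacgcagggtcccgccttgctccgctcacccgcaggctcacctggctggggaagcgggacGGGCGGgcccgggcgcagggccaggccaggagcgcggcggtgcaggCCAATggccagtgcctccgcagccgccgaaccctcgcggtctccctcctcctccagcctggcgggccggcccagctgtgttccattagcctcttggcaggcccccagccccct
Col8a1 held 4 GC boxes, and Col8a2 also held 4, of which 2 share bases. Col16a1 held 1 GC box and 1 CCAAT box. A GC box was in 5 of the 7 member windows and in 32.7% of all 32851 RefSeq windows of 250 bases. The CCAAT box was in 1 of 7 against 33.8%, the TATA box TATAAA in 0 of 7 against 12.4%, and the SOX core AACAAT in 0 of 7 against 9.42%, both strands searched. GC content of the 3 windows was 60.8%, 70.0% and 75.6%, against a median of 52.4% over all windows. These matches describe letters, not bound sites.

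Levels are RPKM, reads per kilobase of genomic span and M reads, solved for each library from the deposited group means. The positive libraries had implied depths of 32.0 M reads (the shallower) and 41.6 M (the deeper), and the negative libraries of 17.0 M (the shallower) and 74.0 M (the deeper). No value is tied to a collection. The order of the 2 values within a group was settled only where it gave whole reads or where the other order gave negative reads. That held for all 8 members among negative cells. Among positive cells it held for Col8a1 and Col8a2 and not for the other 6. For these 6 the values are first given in the order in which the libraries differ less, and the swapped order follows. Sox9, whose locus drives the label, did not overlap between groups: its lower positive value was 4.51 RPKM and its higher negative value 3.32 RPKM.

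All 8 genes had a higher log mean in TdTomato-positive cells, but none passed the authors' test at an FDR of 0.05. Their log2 folds ran from 0.94 for Col14a1 to 4.01 for Col6a1, with a median of 2.84. Over the 17109 genes with at least 10 reads in 2 libraries the median log2 fold was 0.02, and 51.0% were higher in positive cells. At that FDR the authors' deposited table calls 0 members, against 3 genes higher in positive cells (0.0063% of all 47643). Its unadjusted p was below 0.05 for 4 members, Col6a1, Col6a2, Col8a2 and Col16a1, all higher, against 1.58% of the 17109 genes and 0.598% of all genes. In the negative direction it was 0 members against 0.59% of the 17109. In order of log2 fold the 8 members are also in order of this p, whether or not their groups overlapped. Under either order, both positive libraries exceeded both negative ones in 1 of the 8 members, Col16a1, against 15.4% of the 17109 genes. That share of members is near the background. The deeper negative library was the lowest of the 4 in all 8 genes. Its highest value among them was 0.0428 RPKM, for Col6a1. That is below the offset of 0.1 RPKM contained in the log values, so the size of all 8 log2 folds depends on that offset.

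**Figure D1:**
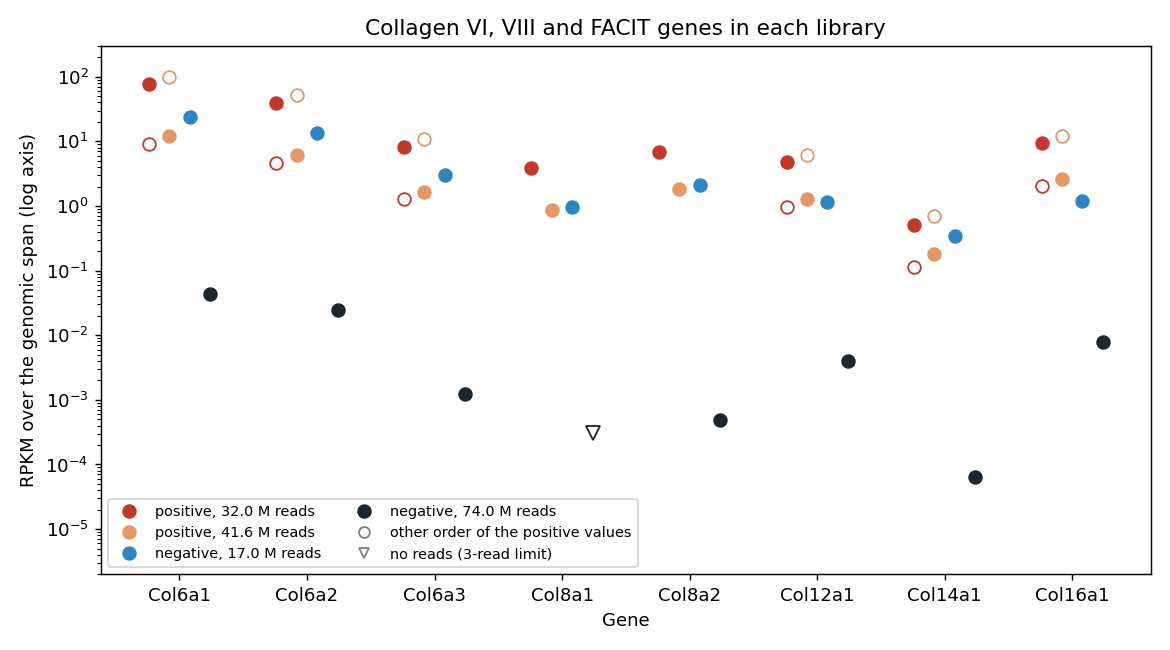
RPKM over the genomic span (log axis) for the 8 genes in the 4 libraries. Filled points are the order used, open circles the swapped order of unsettled positive values, and the open triangle the limit set by 3 reads where Col8a1 had 0. The deeper negative library (74.0 M reads) lies far below the other 3 for every gene, and the shallower one (17.0 M) lies between or near the positive ones except for Col16a1.

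Of the 8 genes, Col6a1 and Col6a2 of collagen VI had the highest RPKM on span in each library, in the order used. In that order Col6a3 stood below Col16a1 in both positive libraries. Col6a1 (ENSMUSG00000001119.7, chromosome 10, 76708792 to 76726168, minus strand, mm10), the α1 chain, stood at 77.0 RPKM in the shallower and 12.0 RPKM in the deeper positive library, or at 9.16 and 100.3 RPKM when swapped. Among negative cells it stood at 23.6 RPKM in the shallower library, on 6963 reads, and at 0.0428 RPKM in the deeper one, on 55. The shallower negative library thus lay between the positive ones under either order, and the groups overlapped. The authors' deposited table gave a natural-log difference of 2.78, which is a log2 fold of 4.01, with p = 0.00545 and an FDR of 1.00.

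Col6a2 (ENSMUSG00000020241.13, chromosome 10, 76595762 to 76623630, minus strand), the α2 chain, is the neighbour of Col6a1, 85.2 kb away with 0 listed genes between them. Its positive values were 39.9 RPKM (shallower) and 6.16 RPKM (deeper), or 4.70 and 52.0 RPKM when swapped. Its negative values were 13.6 RPKM on 6456 reads and 0.0247 RPKM on 51 reads. In the order used, the libraries ranked as for Col6a1, with overlapping groups. The authors' deposited table gave a log2 fold of 3.55 with p = 0.0131.

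Col6a3 (ENSMUSG00000048126.16, chromosome 1, 90765923 to 90843971, minus strand), the largest of these 3 chains, had positive values of 8.21 RPKM (shallower) and 1.68 RPKM (deeper), or 1.26 and 10.7 RPKM when swapped. Its negative values were 3.01 RPKM on 3987 reads and 0.00121 RPKM on 7 reads. The groups overlapped here too. The authors' deposited table gave a log2 fold of 2.73 with p = 0.0544. A transcript model on the same strand, Gm36970, shares 1859 bases of span with Col6a3 and had 101 and 67 reads among positive cells and 0 among negative cells.

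Per kilobase of exon the α1 and α2 chains were in the same ratio in both negative libraries, where both genes were settled. With exonic lengths of 4.38 kb and 8.33 kb from GENCODE M21, Col6a1 was read at 2.05 times Col6a2 in each. Counting intervals (95%, exact Clopper-Pearson) were 1.98 to 2.12 in the shallower negative library and 1.37 to 3.06 in the deeper one. Among positive cells the order is open for each gene by itself, so the ratio is not fixed. With both genes in the order used it was 2.29 in the shallower and 2.30 in the deeper positive library, and with both swapped 2.31 and 2.29. With only Col6a1 swapped it would be 0.272 and 19.3, and with only Col6a2 swapped 19.4 and 0.273. The intervals cover counting error only and treat reads as independent. The exonic length is the union over all annotated transcripts, so comparisons between libraries are firmer than the size of a ratio.

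Col6a3 was not in the same ratio to Col6a1 in the negative libraries. It was read at 0.210 times Col6a1 per exonic kilobase in the shallower one (95% interval 0.202 to 0.218). In the deeper one it was at 0.0466 times, on 7 reads against 55, with an interval of 0.0179 to 0.103 that lies below that of the shallower. Among positive cells the ratio was 0.175 (shallower) and 0.230 (deeper) in the order used, 0.227 and 0.176 with both genes swapped, and between 0.0270 and 1.47 with 1 of them swapped.

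Collagen VIII was settled in every library. Col8a1 (ENSMUSG00000068196.4, chromosome 16, 57624258 to 57754737, minus strand), the α1 chain, had positive values of 3.93 RPKM on 16377 reads (shallower) and 0.853 RPKM on 4628 reads (deeper). The shallower negative library held 0.978 RPKM on 2166 reads. The deeper negative library had 0 reads of it, which allows up to 0.000311 RPKM at 3 reads. The groups overlapped by a small margin, since the lower positive value was 0.872 times the higher negative one. The authors' deposited table gave a log2 fold of 2.54 with p = 0.0752. That fold contains the offset of 0.1 RPKM that stands in for absent reads, so it is no bound. The folds of the other members contain it too, and their values in the deeper negative library were also below it.

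Col8a2 (ENSMUSG00000056174.8, chromosome 4, 126286793 to 126314330, plus strand), the α2 chain, had positive values of 6.81 RPKM on 5991 reads (shallower) and 1.81 RPKM on 2075 reads (deeper). Its negative values were 2.15 RPKM on 1003 reads and 0.000491 RPKM on 1 read. The groups again overlapped narrowly, with the lower positive value at 0.844 times the higher negative one. The authors' deposited table gave a log2 fold of 2.89 with p = 0.0420.

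The balance of the collagen VIII chains differed between libraries. Per exonic kilobase Col8a1 was read at 1.57 times Col8a2 in the shallower positive library (95% interval 1.52 to 1.61). It was at 1.28 times in the deeper positive library (1.21 to 1.35) and at 1.24 times in the shallower negative one (1.15 to 1.34). The last 2 intervals overlap, and the first lies above them by more than counting error.

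Among the FACITs, Col16a1 was the member whose groups did not overlap under either order. Col16a1 (ENSMUSG00000040690.15, chromosome 4, 130047840 to 130099283, plus strand) had positive values of 9.33 RPKM (shallower) and 2.66 RPKM (deeper), or 2.02 and 12.2 RPKM when swapped. Its negative values were 1.19 RPKM on 1036 reads and 0.00788 RPKM on 30 reads. Every positive value was at least 1.70 times the higher negative one. The authors' deposited table gave a log2 fold of 3.74 with p = 0.00861 and an FDR of 1.00. In limma on log2(RPKM + 1), in the order used, its log2 fold was 2.05 ± 0.68 (SE), with an unadjusted p of 0.0320 and an adjusted p of 0.444. With unsettled values swapped, the SE was 0.995 and the unadjusted limma p 0.0983. That p was 0.0547 with a pseudocount of 0.1 and 0.0966 with no filter. With libraries of like depth paired it was 0.00182, and with unlike depths 0.0632.

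Col12a1 (ENSMUSG00000032332.17, chromosome 9, 79598991 to 79718831, minus strand) encodes a long FACIT chain. Its positive values were 4.71 RPKM (shallower) and 1.27 RPKM (deeper), or 0.950 and 6.17 RPKM when swapped. Its negative values were 1.16 RPKM on 2366 reads and 0.00395 RPKM on 35 reads. Whether the groups overlapped depended on the unsettled order: the lower positive value was 1.09 times the higher negative one in the first order and 0.817 times in the swapped one. The authors' deposited table gave a log2 fold of 2.78 with p = 0.0507. An antisense gene, 4930562D21Rik, overlaps Col12a1 and had at most 7 reads in any library.

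Col14a1 (ENSMUSG00000022371.15, chromosome 15, 55307750 to 55520803, plus strand), the other FACIT of fibril surfaces, had the smallest difference of the 8. Its positive values were 0.516 RPKM (shallower) and 0.180 RPKM (deeper), or 0.115 and 0.702 RPKM when swapped. Its negative values were 0.342 RPKM on 1236 reads and 6.34e-05 RPKM on 1 read. The shallower negative library lay between the positive ones under either order. The authors' deposited table gave a log2 fold of 0.94 with p = 0.514. Its ratio of group means was 0.949, below 1 but above the 0.764 of a gene with 0 reads in all libraries. The antisense gene 1700040F17Rik overlaps Col14a1 and had at most 1 read in any library.

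The proportions of the 3 FACITs differed between the negative libraries. Per exonic kilobase Col16a1 was read at 0.988 times Col12a1 in the shallower one (0.917 to 1.06) and at 1.93 times in the deeper one, with an interval of 1.15 to 3.24 on 30 and 35 reads. Col12a1 was read at 0.882 times Col14a1 in the shallower one (0.823 to 0.945) and at 16.1 times in the deeper one, on 35 reads and 1 read, with an interval of 2.71 to 655. In both pairs the intervals do not overlap. In the shallower library Col14a1, at 10.4 reads per exonic kilobase and M reads, was above Col12a1 at 9.15 and Col16a1 at 9.04. On genomic span it was below both, at 0.342 RPKM against 1.16 and 1.19 RPKM. The exonic scale takes all reads of a gene as exonic, which was not tested. Among positive cells Col16a1 over Col12a1 was 1.92 (shallower) and 2.03 (deeper) in the order used and 2.06 and 1.91 with both swapped, but between 0.415 and 9.51 with 1 of them swapped. Col12a1 over Col14a1 was 2.37 and 1.83 in the order used and 2.14 and 2.28 with both swapped, but between 0.468 and 10.6 with 1 of them swapped.

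**Figure D2:**
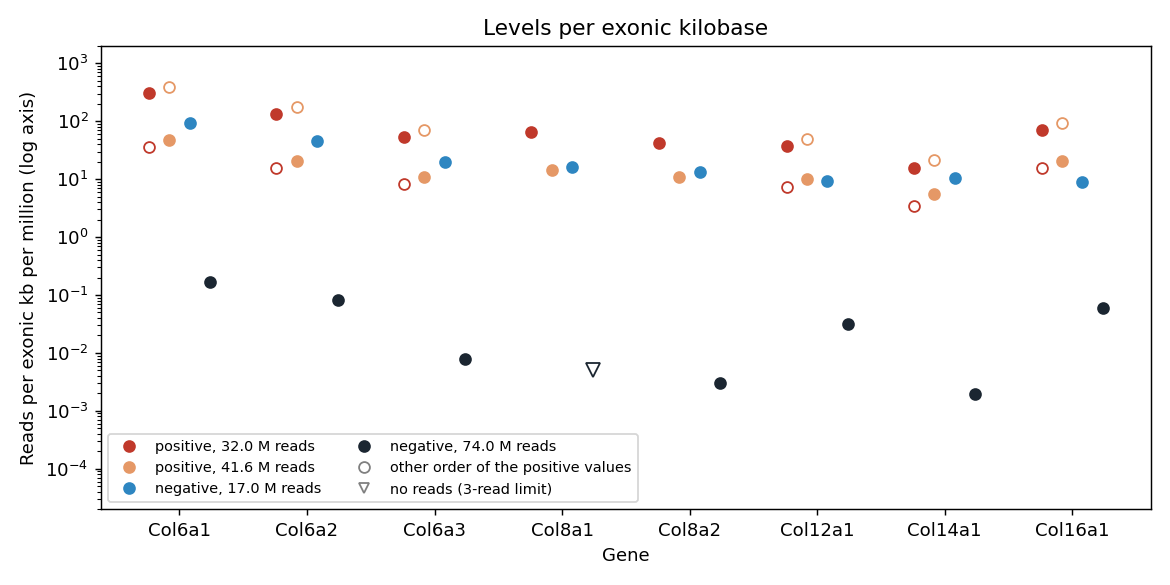
Reads per exonic kilobase and M reads (log axis) for the 8 genes in the 4 libraries, with open circles for the swapped order of unsettled positive values and an open triangle for the 3-read limit. In the order used Col6a1 is highest in each library, and the genes with the longest introns for their exons, Col8a1 and Col14a1, lie closer to the others than on the scale of the genomic span.

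The order of levels between genes depended on the length used. The exonic scale counts any reads from introns as exonic, which matters most where introns are long. Genomic span was 30.4 times the exonic length for Col14a1 and 16.7 times for Col8a1, against 3.35 to 7.87 times for the other 6. On span, in the order used, Col6a1 and Col6a2 led in all 4 libraries and Col14a1 was lowest in 3 of them, with Col8a1 lowest in the deeper negative one. Per exonic kilobase and M reads Col6a1 still led, at 305.5 and 47.4 among positive cells in that order and at 93.7 and 0.170 among negative cells, the shallower library first. With Col6a1 swapped, Col8a1 would stand at 1.80 times Col6a1 in the shallower positive library and at 0.0357 times in the deeper one, so the order among positive cells is not fixed. Col6a2 followed in the order used, at 133.5 and 20.6 against 45.7 and 0.0828. In the same order Col8a1 went from seventh place on span to the fourth in the positive libraries, at 65.4 and 14.2, next to Col16a1 at 71.1 and 20.3. Within a group the libraries differed by more than neighbouring genes did, so neighbours were ranked within a library only. In the order used, among the 17109 genes Col6a1 stood at percentile 98.6 and 94.0 of RPKM among positive cells, against 97.3 and 20.6 among negative cells. Col14a1 stood at percentile 48.3 and 33.7 against 42.8 and 5.0.

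Reads on the 8 genes together numbered 25213 in the shallower negative library and 180 in the deeper one. Their make-up differed between these 2 libraries, in which every member was settled. Col16a1 made up 4.11% of them in the shallower (95% exact interval 3.87 to 4.36) and 16.7% in the deeper (11.5 to 22.9). Col12a1 made up 9.38% (9.03 to 9.75) and 19.4% (13.9 to 26.0). Col6a3 went the other way, with 15.8% (15.4 to 16.3) and 3.89% (1.58 to 7.85). So did Col8a1, with 8.59% (8.25 to 8.94) and 0%, for which the interval reaches 2.03%. Col14a1 also had the smaller share in the deeper library, 0.556% (0.0141 to 3.06) against 4.90% (4.64 to 5.18). Col8a2 did too, at 0.556% against 3.98% (3.74 to 4.23). Col6a1 and Col6a2, at 27.6% and 25.6% in the shallower library, lay within the intervals of the deeper one, 23.9 to 37.8% and 21.9 to 35.5%. Each is 1 library, so these are differences between libraries and not between conditions.

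**Figure D3:**
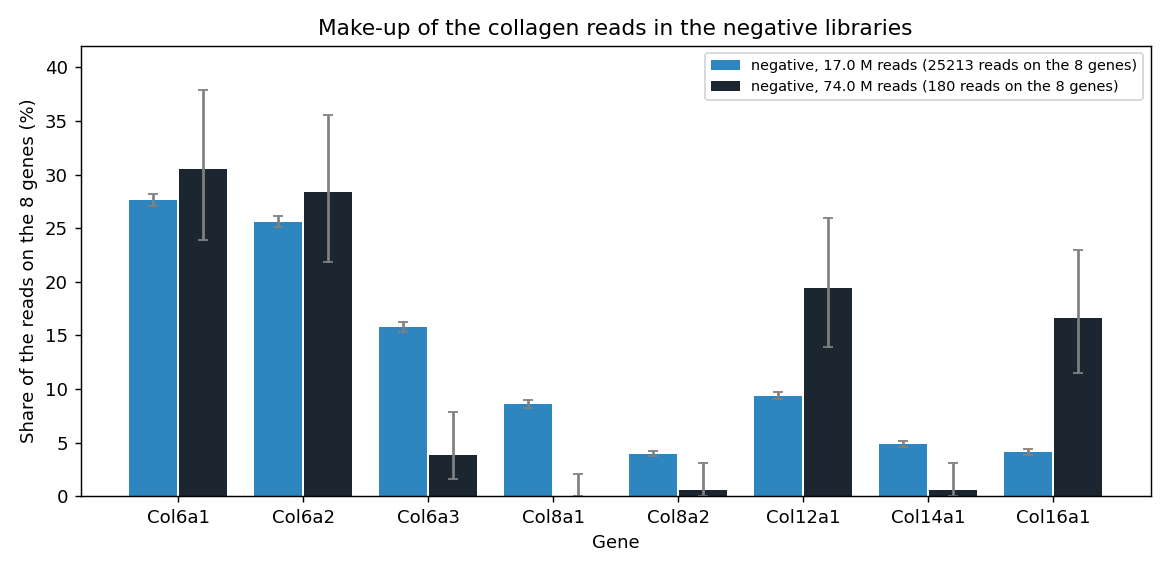
Share of the reads on the 8 genes that fell on each gene (%), in the negative libraries of 17.0 and 74.0 M reads, with 95% exact binomial intervals (counting error only). Col12a1 and Col16a1 take larger shares in the deeper library, and Col6a3, Col8a1, Col8a2 and Col14a1 smaller ones.

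The size of the difference depended on how group means were formed, because the deeper negative library held so few of these transcripts. The log difference gives each library equal weight on a log scale. The deposited means were divided a second time by depth, which gives the shallower negative library 4.36 times the weight of the deeper one. A gene with 0 reads in all libraries has a deposited ratio of 0.764 for the same reason. On that scale a ratio of 1 therefore does not mark equal levels. For Col6a1 the log2 fold was 4.01 by the log difference, 1.91 by the ratio of group means in RPKM and 0.95 by the deposited ratio. For Col16a1 these values were 3.74, 3.33 and 2.23. By the ratio of RPKM means Col16a1, at a log2 fold of 3.33 (3.57 when swapped), and Col12a1, at 2.36 (2.61), led the members, and Col8a1 followed at 2.29. Col6a1, at 1.91, came behind Col8a2 at 2.01 in the order used and ahead of it, at 2.21, when swapped.

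**Figure D4:**
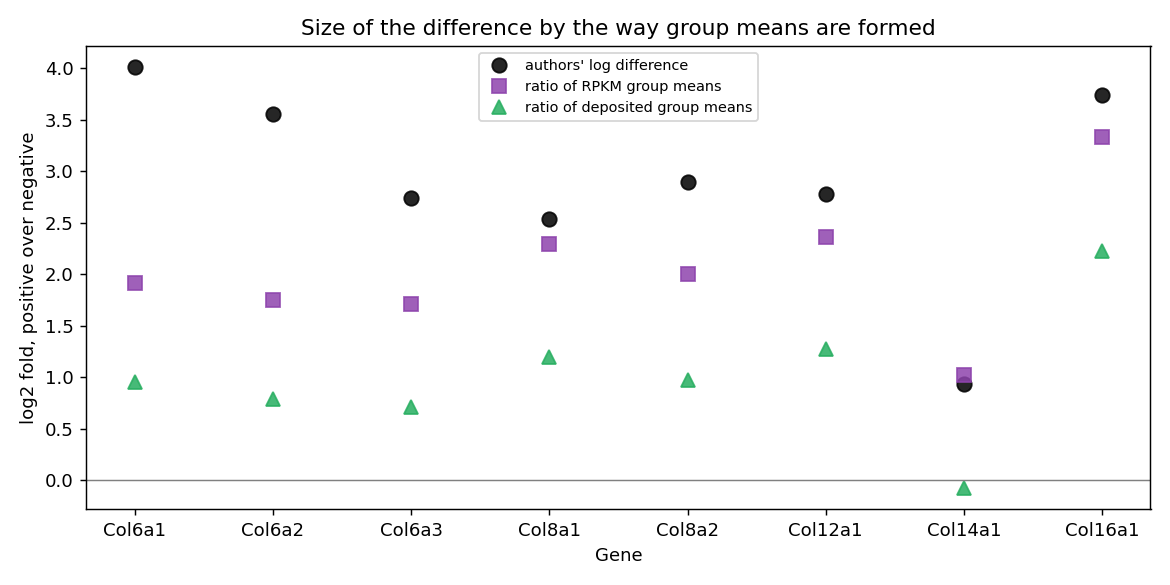
log2 fold of positive over negative cells for the 8 genes, by the authors' log difference (circles), the ratio of group means in RPKM (squares) and the ratio of deposited group means (triangles). Col16a1 is highest by both ratios, and Col14a1 lies at -0.08 by the deposited ratio. A gene with 0 reads in all libraries has a deposited ratio of 0.764, so 0 on this axis does not mark equal levels for the triangles.

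Limma used the spread of each gene between the solved libraries, for genes with at least 1 RPKM in 2 of them, which 6 of the 8 members were. Col8a1 and Col14a1 were fitted only without that filter. It called 0 of 6859 genes higher at an adjusted p of 0.05, and 1 of the 6 members, Col16a1, was higher at an unadjusted p below 0.05, against 7.28% of genes. The median log2 fold of the 6 members was 1.73. Without the deeper negative library it was 0.47, with 0 members below that p against 4.64% of genes. Without the shallower positive library it was 0.77, with 0 members against 1.56%. Leaving out the deeper positive library gave 6 of 6 members against 5.72%, and leaving out the shallower negative one gave 1 against 6.98%. A pseudocount of 0.1 gave 0 members against 4.9% of genes, no filter 0 of 8 against 4.83%, and the swapped order of all unsettled genes 0 against 0.422%. That swap as a whole is not plausible, since it would place 105% of the deeper positive and 214% of the deeper negative depth in genes. With libraries of like depth paired as a block, 6 of 6 members were below that unadjusted p against 14.4% of genes, and with unlike depths paired, 0 against 2.35%.

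Markers of other cell types moved with the libraries, and in the order used their sums are given with the shallower library first. The 4 tendon markers were all higher in log mean among positive cells, with sums of 126 and 22.2 RPKM against 26.7 and 0.0419 RPKM. Collagen VI had that library order as well, but only in the order used. Its 3 chains were unsettled among positive cells, and their order was chosen as the one in which the libraries differ less. This likeness is therefore not a result. Sums of the fibroblast and progenitor, mural and Schwann cell markers had that library order too, in the order used. The adipocyte sums did not, at 0.825 and 1.16 RPKM against 2.36 and 0.0648 RPKM. The tendon, fibroblast and mural sums include genes unsettled among positive cells. Of the mural markers Acta2 and Pdgfrb were unsettled. The settled Rgs5 (0.417 and 1.15 RPKM) and Myh11 (0.0313 and 0.0839 RPKM) were higher in the deeper positive library. The 4 chondrocyte markers in the table were also all higher, with sums of 97.6 and 74.6 RPKM against 0.365 and 0.00250 RPKM, and Acan and Matn3 had 0 reads in the deeper negative library. The 4 osteoblast markers, all higher, summed to 2190 and 967 RPKM against 116 and 0.689 RPKM. Of the 5 fibroblast and progenitor markers 4 were higher, with sums of 147 and 33.6 RPKM against 103 and 14.7 RPKM. Of the 4 muscle markers 3 were higher, with sums of 150 and 84.4 RPKM against 213 and 0.776 RPKM, and Pax7 and Myf5 had 0 reads in the deeper negative library. The 5 leukocyte markers were all lower in log mean, with sums of 184 and 73.5 RPKM against 161 and 334 RPKM, highest in the library where the 8 collagens were lowest. The 4 endothelial markers summed to 0.901 and 1.85 RPKM against 1.59 and 0.424 RPKM, and the 4 mural markers to 11.1 and 4.70 RPKM against 8.93 and 0.823 RPKM, all higher in log mean. The 3 erythroid and 5 neutrophil markers were also lower in log mean in every case. The erythroid markers summed to 9599 and 3378 RPKM against 11947 and 13056 RPKM, and the neutrophil markers to 8183 and 5154 RPKM against 8433 and 19275 RPKM. In both, the sum of the shallower positive library was not far below that of the shallower negative one. In these mixed cell populations fewer cells of a type and less RNA per cell cannot be told apart, and the part of cell make-up in the members' differences was not tested.

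The other chains of these families behaved in more than 1 way. Of 11 on the list 10 were in the table and 7 had at least 10 reads in 2 libraries. Of these 7, 6 were higher in log mean, 3 at an unadjusted p below 0.05 and 0 past the FDR in the authors' deposited table, with a median log2 fold of 2.75. The 3 with the largest folds were the chains of collagen IX, the FACIT of cartilage. Col9a2, at a log2 fold of 6.18, had positive values of 8.63 RPKM (shallower) and 8.25 RPKM (deeper), or 6.31 and 11.3 RPKM when swapped, and 3 and 21 reads among negative cells. Col9a3, at 5.55, had 3 and 17 reads there, and Col9a1, at 3.49 and also on the chondrocyte list, had 2 reads and 1 read. The collagen IX chains were thus nearly absent from the shallower negative library, where each of the 8 members had at least 1003 reads.

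Genes of collagen fibrils and their partners had a higher log mean in 12 of 12 cases, against 51.0% of the 17109 genes. Their median log2 fold was 4.60. Of these 12, 9 were at an unadjusted p below 0.05 in the authors' deposited table, against 1.58% of the 17109 genes, and 0 past the FDR. Comp, a matrix protein of cartilage and tendon, had positive values of 199 and 43.9 RPKM against 13.7 and 0.0174 RPKM, a log2 fold of 6.16. Col1a1 and Col1a2, the chains of collagen I, had log2 folds of 5.28 and 5.11, and in both the shallower negative library lay between the positive ones under either order. Of the 12 only Comp had groups that did not overlap under either order, against 15.4% of the 17109 genes. Of 10 collagen receptors and binders 7 had a higher log mean, against 51.0% of genes, with a median log2 fold of 1.11. At an unadjusted p below 0.05 there were 0 in the authors' deposited table, against 1.58%. Cspg4, the proteoglycan NG2 that binds collagen VI, had positive values of 3.05 and 0.731 RPKM against 0.661 RPKM in the shallower negative library and 0 reads in the deeper one, a log2 fold of 2.51. Itga10 and Itga11, integrin chains that bind collagen, had log2 folds of 2.42 and 1.58.

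Of 14 genes of collagen synthesis 12 had a higher log mean, with a median log2 fold of 1.96, 4 at an unadjusted p below 0.05 and 0 past the FDR. Pcolce, an enhancer of procollagen processing, had a log2 fold of 4.41. Serpinh1, the collagen chaperone HSP47, had 3.96, and Fkbp10, a prolyl isomerase that acts on procollagen, had 3.50. In these 3 the shallower negative library lay between the positive ones in the order used, as it did for collagen VI.

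**Figure D5:**
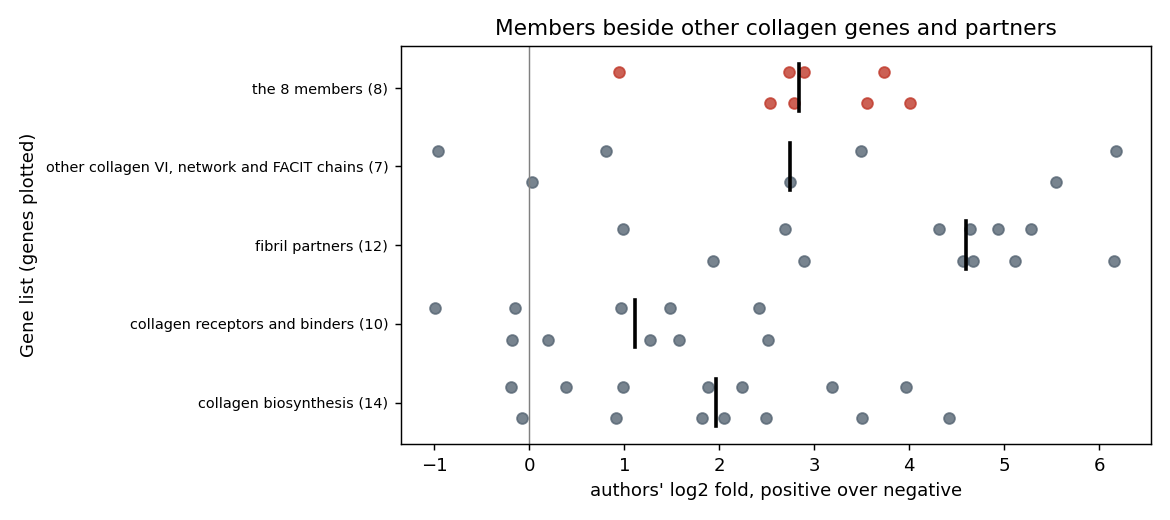
Authors' log2 fold of each gene with at least 10 reads in 2 libraries, in the 8 members and 4 related lists, with the median as a bar. The members run from 0.94 to 4.01, the fibril genes have the highest median, 4.60, and genes below 0 are in the other 3 lists.

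The genes whose library pattern was most like that of collagen VIII were Igf2, Tbx2, Efs, Scara3 and Mxra7. Likeness was the Euclidean distance over the 4 libraries between centred log2(RPKM + 0.1) values and the mean profile of Col8a1 and Col8a2, the members settled in every library, among 3324 settled genes. The distances ran from 0.176 for Igf2 to 0.307 for Mxra7, against a median of 4.43 over those genes. Igf2, which encodes a growth factor, had positive values of 5.26 and 1.39 RPKM against 1.42 and 0.0135 RPKM. Tbx2, which encodes a T-box transcription factor, had 6.19 and 1.44 RPKM against 1.79 and 0.00288 RPKM. With 4 libraries such a match describes these libraries and no more.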

How the data were processed

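RNA was measured in 4 libraries of sorted mouse periosteal cells, 2 TdTomato-positive and 2 TdTomato-negative. STAR, Partek and mm10 are named in the submitters' processing notes, without versions. The authors deposited 1 table of 47643 genes. Its group means are a normalized signal, per the file headers. The authors' model was lognormal with shrinkage, per the file headers, and gave a p-value, an FDR and an Akaike criterion, taken as a score. The deposited log difference is on the natural log scale, and the deposited ratio is that of the group means. The authors' highest value and sum, headed raw reads, hold fractional values and were also taken as a score.

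The means, highest value and log difference fix 4 library values per gene, with exactly 1 solution each. They matched RPKM on genomic span plus 0.1, divided again by depth and span. That scale and both depths per group rest on the values alone. The Akaike criterion less 2 times the summed natural logs ran from 24.5 to 25.8. An order was settled where reads were whole within 0.01 plus 1e-07 of the reads, at most 0.05 (0.002 if only 1 value was whole), or where swapping gave negative reads. Both groups were settled in 11622 of 17109 genes (67.9%). Swapping all unsettled genes would place 214% of the deeper negative depth and 105% of the deeper positive depth in genes.

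The authors' FDR of 0.05 was the test. Limma 3.58.1 on log2(RPKM + 1), for genes with at least 1 RPKM in 2 libraries, was an alternative (R 4.3.3, Python 3.11.15). Solver and fit were tested on simulated data. The solver's simulated reads had the offset and scale that it assumes, so they do not test that scale. The fit's simulated libraries differed less within a group than those of the members did, so that test does not gauge power here. Exonic lengths came from GENCODE M21, which has the table's coordinates for all 8 members. Named genes are the 8 members, the 3 largest folds of each related list, Sox9 and the 5 nearest profiles. Members and lists were chosen with earlier results of these data known. Whether counting used strand is not stated. Labels number the 2 collections, which pair positive with negative libraries, but no deposited value carries that number, so both possible pairings were fitted.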

Additional observations from a re-analysis of the deposited data

How the results depend on the processing

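No member passed an adjusted threshold in the authors' table or in any of the 10 limma fits; the lowest adjusted p was 0.150. The authors' p was below 0.05 for 4 members, all higher, against 1.58% of the 17109 genes. That count was 1 with limma, against 7.28% of genes, and 0 with a pseudocount of 0.1, against 4.9%. It was 0 with no filter on low values, against 4.83%, and 0 with the swapped order, against 0.422%. Of 86 log2 folds of single members under alternatives 85 were above 0. The exception was Col14a1, at -0.0751 by the deposited ratio of group means, which weights the shallower negative library more. A gene with 0 reads in all libraries has a lower ratio on that scale, 0.764, so this sign gives no direction. In limma the median log2 fold of 6 members was 1.73 with all libraries and 0.47 to 2.50 when 1 was left out. The authors' log difference, with another offset and all 8 members, gave 2.84. A replicate block was also fitted in limma for each possible pairing of the collections. With like depths paired, 6 of 6 members were below an unadjusted p of 0.05, against 14.4% of genes. With unlike depths paired it was 0, against 2.35%. The ratios of RPKM means and the exonic lengths were chosen after seeing the data. A fit that leaves out 1 library assumes that the lone library of its group varies like the others. In the deeper negative library members had 0 to 55 reads, which limits ratios there.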

Other observations

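The remaining chains related to collagen VI and the FACITs are given here without a test and were chosen for mention after their values were seen. Col20a1, a FACIT chain, had positive values of 0.0989 RPKM (shallower library) and 0.00233 RPKM (deeper) against 0.547 and 0.0131 RPKM among negative cells, a log2 fold of -0.96. Of the 7 related chains with at least 10 reads in 2 libraries only Col20a1 was below 0, and its highest value was in a negative library. Col6a6, an alternative chain of collagen VI, had 347 and 2 reads among positive cells and 147 and 0 among negative cells. Col22a1, a FACIT of tissue junctions, had positive values of 0.201 and 0.0509 RPKM against 0.0405 RPKM and 0 reads, without overlap. Col10a1, the network collagen of hypertrophic cartilage, had 0.925 and 1.81 RPKM against 0.274 and 0.00951 RPKM. Unlike Col8a1 and Col8a2, it was highest in the deeper positive library.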
